A study of Mus musculus with 20 samples.

Results

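The mitochondrial ribosomal protein genes of the mouse, named Mrpl for the large subunit and Mrps for the small subunit, were followed in injured heart tissue. They were taken as every annotated protein-coding gene of the deposited gene table whose symbol starts with Mrpl or Mrps and a digit, matched by Ensembl ID, which gave 77 of the 63318 genes listed. Of these, 50 encode proteins of the large subunit and 26 of the small subunit. Mrps18a and Mrps30 are counted with the large subunit, where their proteins sit despite their names. The remaining gene, Mrps36, carries the name but is known to encode a subunit of the 2-oxoglutarate dehydrogenase complex, and it was kept because the name chose it.

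The study sampled hearts 72 h after surgery for myocardial infarction (MI) and hearts after 40 min of left coronary artery occlusion followed by 72 h of reperfusion (IR). Each had its own sham-operated hearts, MISham and IRSham. MI and MISham tissue took in the core and its surroundings, and IR and IRSham tissue the core alone, so the injury and the sampled region cannot be told apart when MI is set against IR. Each group has 4 short-read libraries of polyadenylated RNA. The labels give no strain, sex or age and no mouse per library, so the spread that p-values rest on may be technical. Values given below for hearts of a group are those of its libraries, and n counts libraries. A further 4 long-read libraries, 1 per group, were not analysed here.

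Mitochondria keep a small genome that encodes core subunits of the respiratory chain, and they translate its mRNAs on ribosomes of their own. The ribosomal RNAs come from the mitochondrial genome, while every protein of these ribosomes is encoded in the nucleus, made in the cytosol and imported. Many of the proteins descend from bacterial ribosomal proteins and others exist only in mitochondria. Cardiac muscle is rich in mitochondria, and in humans variants of several of these genes, MRPL3, MRPL44 and MRPS22 among them, cause disease with cardiomyopathy.

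Library totals were 57215382 to 63070805 counts in MI, 24273984 to 27569120 in MISham, 26175373 to 31832969 in IR and 25518543 to 29759773 in IRSham. The MI libraries were the deepest. The lowest count of any tested gene of the family in a library was 220. The tissue label held: summed CPM of 6 cardiomyocyte markers (Myh6, Tnnt2, Tnni3, Actc1, Ryr2, Myl2) ran from 57972 to 69126 over the 8 sham libraries. After injury the same sum was 10574 to 19965 in MI and 12156 to 24261 in IR. Of 58 marker genes of 10 cell types, only the atrial marker Sln was at 0 in every library. MISham libraries 1 and 3 held more macrophage and fibroblast RNA than the other MISham libraries, and IR libraries 1 and 3 held more cardiomyocyte RNA than the other IR libraries. MI library 3 had the highest cardiomyocyte sum of its group (19965 CPM, against 10574 to 15149 in the other MI libraries) and the highest neutrophil sum (422 CPM, against 182 to 200.2).

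Most of the mitoribosomal protein genes took a smaller part of the counts after either injury. In CPM (counts relative to the library total after TMM scaling, which sets library scales by the bulk of genes), the 77 genes together held 2414, 2397, 2685 and 2572 CPM in MI hearts, against 4250, 4446, 4103 and 4663 CPM in MISham hearts. In IR hearts they held 2720, 2344, 2591 and 2344 CPM, against 4212, 4557, 4152 and 4258 CPM in IRSham hearts. Every injured library was below every sham library, and MISham and IRSham overlapped. As a share of all counts, without any scaling, the family averaged 0.280% ± 0.0098 in MI and 0.391% ± 0.0145 in MISham, and 0.276% ± 0.0155 in IR and 0.388% ± 0.0124 in IRSham (SD, n = 4 each).

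On transcript abundance the same sum overlapped between injured and sham hearts. Summed TPM (the deposited abundance per transcript length and library total, added over the annotated transcripts of each gene) of the family was 4775, 5020, 4977 and 4769 in MI, against 4841, 4944, 4902 and 4881 in MISham. It was 4789, 5075, 4906 and 4627 in IR, against 5166, 5120, 5047 and 4964 in IRSham. TPM forces all transcripts of a library to 1 fixed total, and the mitochondrially encoded transcripts held 8.51% ± 1.08 of it in MI hearts and 19.5% ± 0.610 in MISham hearts. They held 9.55% ± 2.52 in IR hearts and 17.7% ± 0.170 in IRSham hearts (SD, n = 4 each). The median gene stood higher by 0.70 on the log2(TPM + 1) scale in MI than in MISham, and by 0.57 in IR than in IRSham. On TMM-scaled counts these medians were 0.08 and 0.03. On TPM taken outside the mitochondrially encoded transcripts they were 0.55 and 0.46. The source of the shift between the scales was not tested. Taken against the median of all genes, the family's median log2 fold change was -0.73 on counts and -0.67 on summed TPM in MI, and -0.75 on counts and -0.65 on summed TPM in IR. Directions below are those of TMM-scaled counts, that is relative to the bulk of genes. On TPM scaled with TMM factors as well, the sign was that of the counts for 73 of 76 genes in MI and 74 in IR (shares over all genes not computed). For genes of the family named below, an opposite direction on summed TPM is stated, in part in the last section. For the others it is given as a count. The fold changes of related gene lists are given on counts alone.

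**Figure D1:**
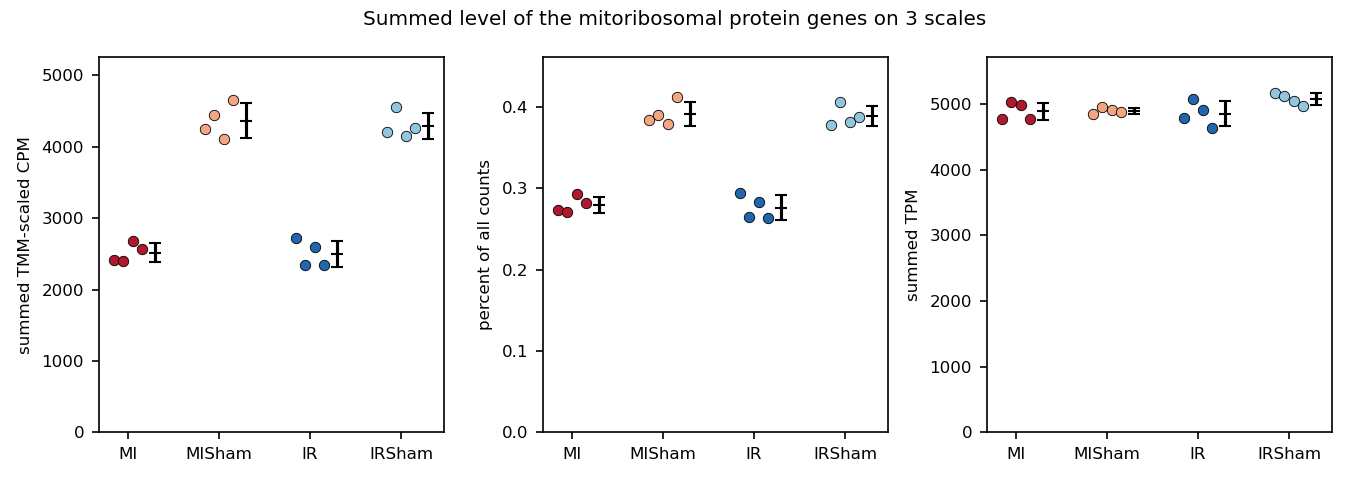
Summed level of the 77 genes in each library (points) with group mean and SD (bars), as TMM-scaled CPM, as percent of all counts and as summed TPM, for MI, MISham, IR and IRSham. Injured libraries lie below all sham libraries on both count scales, while on summed TPM the groups overlap between 4627 and 5166.

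MI was set against MISham to ask what an infarct changes in the tissue. On TMM-scaled counts, 67 of the 76 genes tested were lower in MI than in MISham (88.2%, where 30.2% of all 19741 genes tested were called lower), and 23 of them were lower by at least 2-fold (30.3%, against 16.4% of all genes). There were 3 genes called higher, Mrpl52, Mrpl20 and Mrpl17, where 34.8% of all genes were called higher. The other 6 genes, Mrpl33, Mrpl40, Mrps10, Mrps18b, Mrps22 and Mrps6, did not pass. The family's median log2 fold change was -0.65, against 0.08 over all genes. Calls are adjusted p under 0.05 by edgeR's quasi-likelihood test with Benjamini-Hochberg adjustment over all genes. In 67 genes all 4 MI libraries lay below all 4 MISham libraries, as they did in 28.6% of all genes. On unscaled summed TPM the calls were 26 lower and 24 higher of 77, where 12.8% of all 14323 genes were called lower and 66.3% higher (limma).

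IR was set against IRSham to ask the same of reperfused tissue. Here 68 of 76 genes were lower in IR than in IRSham (89.5%, against 28.2% of all genes), 16 of them by at least 2-fold (21.1%, against 13.1%). Mrps10 alone was called higher, where 29.5% of all genes were, and it was called higher on summed TPM too. The count call on Mrps10 was lost without IR library 4 (edgeR adjusted p = 0.102, log2 fold change 0.16) and without IRSham library 2 (edgeR adjusted p = 0.0553, 0.22). Mrpl17, Mrpl20, Mrpl33, Mrpl40, Mrpl52, Mrps18b and Mrps18c did not pass. The median log2 fold change was -0.72, against 0.03 over all genes. In 66 genes no IR library reached the lowest IRSham library, as in 25.4% of all genes. On unscaled summed TPM 28 genes were called lower and 15 higher, where 12% of all genes were called lower and 62.3% higher (limma).

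Both comparisons called 66 genes lower on counts, where 24.8% of all genes were lower in both. Of these, 21 genes were also lower on unscaled summed TPM in both comparisons, where 10.5% of the genes measured both ways met all 4 conditions. They are Mrpl1, Mrpl4, Mrpl9, Mrpl12, Mrpl14, Mrpl18, Mrpl28, Mrpl30, Mrpl37, Mrpl39, Mrpl41, Mrpl42, Mrpl44, Mrpl45, Mrpl55, Mrps9, Mrps21, Mrps23, Mrps24, Mrps31 and Mrps36. At the other end, 15 genes called lower in MI on counts were called higher on summed TPM (19.7% of the 76 tested, against 7.35% of all genes measured both ways), and 7 genes in IR (9.21%, against 5.9%). In all, the sign of the fold change differed between counts and unscaled summed TPM for 36 of 76 genes in MI and for 30 in IR. With TMM factors on TPM, the sign was that of the counts for 73 of 76 genes in MI and for 74 in IR. The shares of all genes for these sign counts were not computed. The median of all genes also stood higher on summed TPM than on counts, at 0.70 against 0.08 in MI and 0.57 against 0.03 in IR. The order of the genes was alike on counts and on TPM scaled with TMM factors. The Spearman correlation of the count and TPM log2 fold changes over 76 genes was 0.96 in MI and 0.94 in IR. It is a description over genes that share libraries. A factor per library hardly alters the order of genes, so the likeness is not owed to the scaling.

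**Figure D2:**
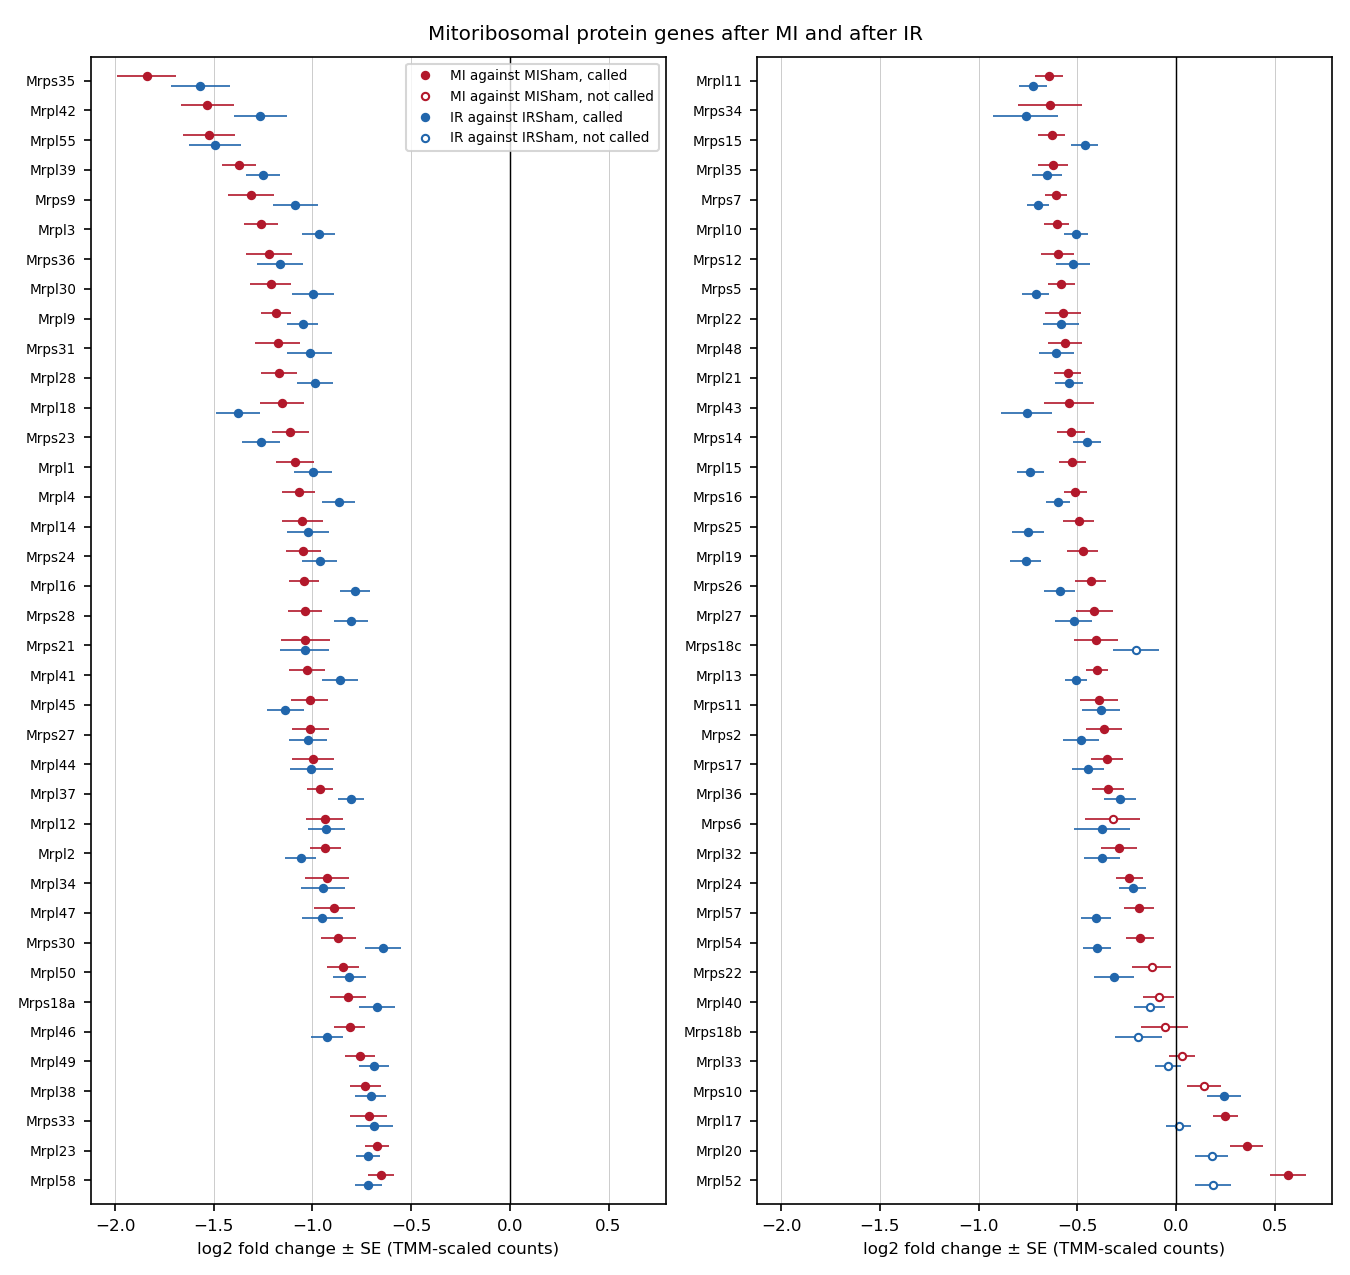
The log2 fold change (± SE) of each of the 76 tested genes on TMM-scaled counts, MI against MISham in red and IR against IRSham in blue, sorted by the MI value; filled points passed an adjusted p under 0.05. Nearly all points lie left of 0 in both comparisons, from Mrps35 at -1.84 to Mrpl52 at 0.57. On unscaled summed TPM the sign differs for 36 genes in MI and 30 in IR, while on TPM scaled with TMM factors it is the same for 73 and 74 (shares over all genes not computed).

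The gene with the lowest fold change was Mrps35, which encodes a protein of the small subunit with no bacterial relative. It had 20.97, 22.6, 28.5 and 24.5 CPM in MI hearts, against 80.3, 90.5, 70.2 and 105 CPM in MISham hearts. In IR hearts it had 36.0, 22.7, 30.5 and 23.0 CPM, against 81.6, 77.7, 86.7 and 86.4 CPM in IRSham hearts. The groups were far apart in both comparisons, and among IR libraries the pair with more cardiomyocyte RNA had the higher values. The log2 fold change was -1.84 ± 0.15 (SE; edgeR adjusted p = 2.95e-08) in MI and -1.57 ± 0.15 (edgeR adjusted p = 3.04e-07) in IR. On summed TPM Mrps35 was also lower in MI, with a log2 difference of -0.87 (limma adjusted p = 0.0027), while the IR difference of -0.35 did not pass (limma adjusted p = 0.18).

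Mrpl42, a mitochondria-specific protein of the large subunit, had the highest mean CPM of the family. It held 78.3, 71.1, 99.8 and 90.9 CPM in MI against 230, 264, 217 and 274 CPM in MISham, and 119, 76.7, 97.8 and 79.4 CPM in IR against 223, 237, 211 and 226 CPM in IRSham. No injured library reached a sham library. Its log2 fold change was -1.53 ± 0.13 in MI (edgeR adjusted p = 3.72e-08) and -1.26 ± 0.13 in IR (edgeR adjusted p = 5.22e-07). It was also first in summed TPM among sham hearts, with 241 ± 23.98 TPM in MI hearts and 421 ± 22.8 TPM in MISham hearts. The IR hearts held 253 ± 27.8 TPM and the IRSham hearts 396 ± 10.6 TPM (SD, n = 4 each). It was thus lower on the scale that corrects for length as well.

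Further large-subunit genes fell by at least 2-fold on counts in both injuries. Mrpl55, which encodes the relative of bacterial bL31, had a log2 fold change of -1.52 ± 0.13 in MI and -1.49 ± 0.13 in IR. Mrpl39, a mitochondria-specific protein, had 30.6, 29.6, 31.6 and 31.5 CPM in MI against 74.5, 82.2, 72.0 and 90.0 CPM in MISham, and 32.0, 29.7, 37.6 and 29.2 CPM in IR against 83.9, 74.8, 75.3 and 71.4 CPM in IRSham. Its 8 injured libraries were close to one another, with IR library 3 the highest, and all lay below the 8 sham libraries. Mrpl9 had log2 fold changes of -1.18 ± 0.08 and -1.05 ± 0.08, in MI and in IR. All 3 genes passed edgeR's test with adjusted p-values from 2.35e-09 to 1.27e-07, and all 3 were lower on summed TPM.

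Mrpl18, the relative of the bacterial protein that binds 5S rRNA, had 12.1, 10.8, 14.0 and 13.2 CPM in MI, against 27.5, 24.5, 27.8 and 31.6 CPM in MISham. It had 13.3, 9.87, 12.2 and 10.1 CPM in IR, against 27.5, 30.6, 29.0 and 31.0 CPM in IRSham. That is a fall of 55.1% in MI and of 61.5% in IR, with no overlap. Mrpl3, which lies close to the peptidyl transferase centre, fell by 58.2% in MI and by 48.9% in IR. Its difference between the shams was 0.23 on the log2 scale, toward MISham (edgeR unadjusted p under 0.05, not passing after adjustment). Mrpl30 and Mrpl4 fell by 56.8% and 52.3% in MI, and by 49.9% and 45.2% in IR. Mrpl2, whose bacterial relative lies near the peptidyl transferase centre, fell by 47.7% in MI and by 52.0% in IR on counts. On summed TPM its difference was -0.17 in MI, which did not pass, and -0.30 in IR (limma adjusted p = 0.0157).

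Several genes of the large subunit encode proteins of known place or function. The stalk that recruits translation factors is built on Mrpl10 and Mrpl11 and carries Mrpl12. Mrpl12 had 86.0, 82.2, 109 and 97.4 CPM in MI against 182, 183, 163 and 190 CPM in MISham, and 110, 88.5, 94.4 and 88.6 CPM in IR against 171, 197, 172 and 187 CPM in IRSham. It fell by 47.8% in MI and by 47.5% in IR, and it was lower on summed TPM as well. Mrpl10 fell by 34.2% and 29.6% on counts and Mrpl11 by 36.0% and 39.4%, in MI and in IR. Summed TPM did not call either gene, with differences of 0.03 and 0.13 for Mrpl10 and 0.12 and -0.07 for Mrpl11 on the log2 scale. Mrpl45, which ties the ribosome to the inner membrane beside the exit tunnel, fell by 50.5% and 54.6% and was lower on both measures. Mrpl44, which has a fold of ribonuclease III, fell by 49.9% and 50.2% and was also lower on both. Mrpl58, a peptidyl-tRNA hydrolase that became part of the ribosome, fell by 36.4% and 39.1% on counts, while its summed TPM averaged 88.1 in MI and 87.9 in MISham, and 89.4 in IR and 94.1 in IRSham.

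In the small subunit, Mrps9, whose bacterial relative touches the tRNA in the P site, fell by 59.7% in MI and by 52.9% in IR and was lower on both measures. Mrps31 fell by 55.7% and 50.5%, and Mrps23 by 53.7% and 58.3%. Mrps23 had 67.9, 63.5, 89.2 and 77.2 CPM in MI against 167, 157, 150 and 169 CPM in MISham, and 82.3, 66.6, 80.5 and 71.9 CPM in IR against 183, 194, 171 and 174 CPM in IRSham. Mrps24, the relative of uS3 at the mRNA entry, fell by 51.6% and 48.7%, and Mrps21 by 51.2% and 51.4%. Mrps12, the decoding-centre protein whose bacterial form carries streptomycin resistance, fell by 34.0% and 30.3% on counts but stood at 0.14 and 0.08 log2 higher on summed TPM, where neither passed. Mrps2 and Mrps17 fell by 22.3% and 21.6% in MI and by 28.3% and 26.6% in IR on counts. Their unscaled summed TPM ran the other way, with 0.33 and 0.15 in MI and 0.17 and 0.16 in IR, of which Mrps2 in MI passed limma's test. In MI 66.3% of all genes were called higher on that scale. With TMM factors on TPM the 2 genes were lower, at -0.28 and -0.48 in MI and -0.32 and -0.35 in IR.

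The subunits are given side by side, and the difference between them was not tested. The 49 large-subunit genes tested had a median log2 fold change of -0.76 in MI and -0.74 in IR, with 44 lower in each. The 26 small-subunit genes had medians of -0.59 and -0.64, with 22 and 23 lower. Of all genes 30.2% were lower in MI and 28.2% in IR. The ratio of summed large-subunit to summed small-subunit CPM was 2.33 ± 0.0186 in MI and 2.37 ± 0.0252 in MISham, and 2.31 ± 0.0457 in IR and 2.30 ± 0.0191 in IRSham (SD, n = 4 each). Genes with a bacterial relative (46 tested) had medians of -0.61 in MI and -0.71 in IR, and genes found only in mitochondria (29 tested) had -0.76 and -0.75. Mrps36, which is not a ribosome component, had a log2 fold change of -1.22 ± 0.12 in MI and -1.17 ± 0.12 in IR and was lower on summed TPM in both.

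A few genes stood apart from the rest. Mrpl52, a small mitochondria-specific protein of the large subunit, had 60.8, 58.8, 60.6 and 66.2 CPM in MI against 39.8, 38.0, 44.1 and 44.4 CPM in MISham. In IR it had 54.4, 46.3, 52.7 and 47.9 CPM, against 37.9, 53.2, 44.0 and 42.0 CPM in IRSham. It was higher in every MI library than in any MISham library, while IR and IRSham overlapped. The log2 fold change was 0.57 ± 0.09 in MI (edgeR adjusted p = 3.05e-05) and 0.18 ± 0.09 in IR (edgeR adjusted p = 0.0937). On summed TPM it averaged 406 ± 25.8 in MI hearts and 164 ± 15.3 in MISham hearts. The averages were 328 ± 27.2 in IR hearts and 190 ± 20.2 in IRSham hearts (SD, n = 4 each). Both TPM differences passed limma's test, at 1.31 and 0.79 on the log2 scale, and they also passed with TMM factors, at 0.66 and 0.27. Without IRSham library 2, the highest of its group, the count difference in IR was 0.28 and was called (edgeR adjusted p = 0.0074).

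Mrpl20, whose bacterial relative is needed early in assembly of the large subunit, had 36.8, 41.6, 41.5 and 41.4 CPM in MI against 31.8, 25.9, 34.0 and 34.1 CPM in MISham, with no overlap. Mrpl17, at the rim of the exit tunnel in bacteria, had 61.9, 63.4, 60.4 and 62.2 CPM in MI against 50.8, 54.1, 51.0 and 52.7 CPM in MISham. These are rises of 28.2% and 18.9% (edgeR adjusted p = 0.00124 and 0.00201). In IR the fold changes were 0.18 and 0.01 on the log2 scale and did not pass on counts, whereas summed TPM of both genes was called higher in IR too, at 0.81 and 0.79. The count rise of Mrpl20 in IR was called without MISham library 2 (edgeR adjusted p = 0.0366) and without IRSham library 2 (0.045, log2 fold change 0.23). Mrpl17 overlaps a pseudogene on the opposite strand.

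**Figure D3:**
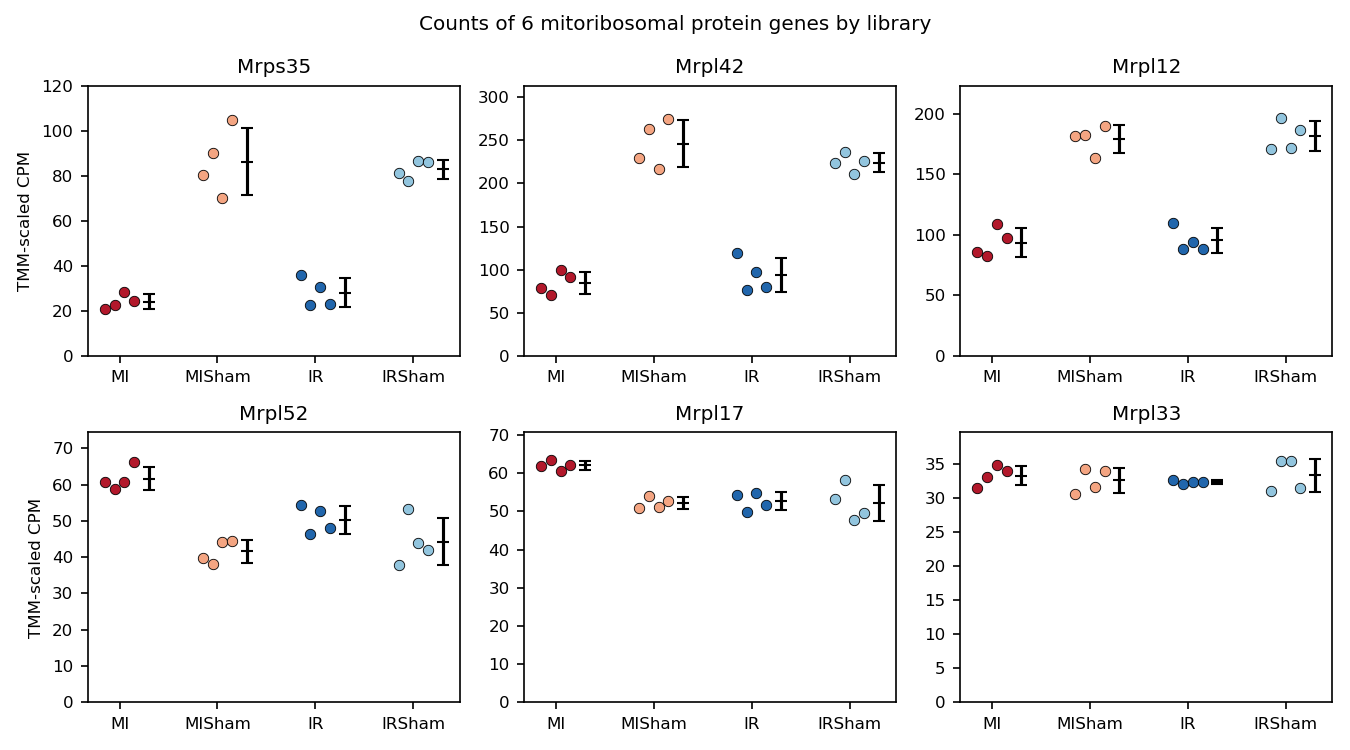
TMM-scaled CPM of 6 genes in each library (points) with group mean and SD (bars) for MI, MISham, IR and IRSham. Mrps35, Mrpl42 and Mrpl12 were lower in every injured library, Mrpl52 and Mrpl17 were higher in every MI library than in any MISham library, and Mrpl33 overlapped between groups on this scale. The unscaled summed TPM of Mrpl33 was called higher in MI and IR, and with TMM factors it was not called.

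Mrpl33 had the smallest absolute change on counts in MI, with 31.4, 33.0, 34.8 and 33.9 CPM in MI against 30.5, 34.2, 31.5 and 33.9 CPM in MISham, and 32.7, 32.0, 32.3 and 32.3 CPM in IR against 31.0, 35.4, 35.4 and 31.5 CPM in IRSham. Its log2 fold changes were 0.03 ± 0.07 and -0.04 ± 0.07. Its unscaled summed TPM was called higher in both comparisons, as was that of 66.3% of all genes in MI and 62.3% in IR (limma). It averaged 348 ± 8.65 in MI hearts and 224 ± 11.9 in MISham hearts. In IR hearts it averaged 325 ± 17.9, and in IRSham hearts 240 ± 9.51 (SD, n = 4 each). Mrpl40 likewise had log2 fold changes of -0.09 ± 0.08 and -0.13 ± 0.08 on counts and of 0.71 and 0.58 on summed TPM. Mrps10, Mrps18b, Mrps22 and Mrps6 lay between -0.32 and 0.14 in MI without passing, and Mrps22 and Mrps6 passed as lower in IR, at -0.31 and -0.38, though their summed TPM was called higher. In MI the summed TPM of Mrps18b, Mrps22 and Mrps6 ran the other way than the counts, as did that of Mrps18b and Mrps18c in IR. Mrpl54 and Mrpl57 were the smallest falls called in MI, at -0.18 and -0.19 (edgeR adjusted p = 0.0303 and 0.0406), and their summed TPM ran the other way, at 0.57 and 0.10. Neither count call held without any 1 of the 4 MI libraries or without MISham library 2 (edgeR adjusted p from 0.0509 to 0.114); that of Mrpl54 was also lost without MISham library 1 (0.107), and that of Mrpl57 without MISham library 3 (0.114), IR library 4 (0.0515), IRSham library 3 (0.0514) or IRSham library 4 (0.0518). For Mrps6, leaving out IR library 3 or 4 or IRSham library 1 or 2 ended the IR call (edgeR adjusted p from 0.0537 to 0.132), and leaving out MISham library 2, IR library 1 or 3 or IRSham library 2 brought an MI call (from 0.0203 to 0.0465). Mrpl24 and Mrpl36 were called lower on counts in both injuries, at -0.24 and -0.34 in MI and -0.22 and -0.28 in IR, and called higher on unscaled summed TPM in both. With TMM factors on TPM both were lower, at -0.29 and -0.31 in MI and -0.25 and -0.18 in IR. Of these Mrpl36 in IR did not pass (limma). On that scale Mrpl57 was at -0.54 in MI (limma adjusted p = 0.000276). Mrpl33 (-0.01 and -0.09), Mrpl40 (0.081 and 0.075) and Mrps18b (-0.11 and 0.33) were not called in MI or IR.

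Reads at some loci cannot be assigned with certainty. Of the 77 genes, 36 overlap a gene on the opposite strand and 12 overlap one on the same strand in the GENCODE annotation, and no source says whether the counting used strand. Mrpl53 is the clearest case: it had 0 counts in all 16 libraries and could not be tested, while its summed TPM was 83.4 to 90.9 in MI hearts and 91.3 to 100.2 in MISham hearts. It was 82.6 to 92.9 in IR hearts and 98.7 to 109 in IRSham hearts. Its annotated span overlaps Gm42688 on the same strand. Mrps6, among the lowest in CPM at 8.93 to 10.5 in MI against 10.1 to 14.3 in MISham, shares its strand and span with Slc5a3. Mrpl33 overlaps Gm43809 on the same strand over 67447 bases and Rbks on the opposite strand over 39946 bases. The part of these overlaps in its counts was not tested.

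The response to MI and the response to IR were tested against each other. No gene of the family was called (edgeR, against 0.192% of all genes), with 8 genes at an unadjusted p under 0.05. DESeq2 called 0 of the family, with 9 at an unadjusted p under 0.05, where it called 244 of all 19741 genes higher and 281 lower. The largest difference was that of Mrpl52, at 0.38 ± 0.13 on the log2 scale (edgeR adjusted p = 0.183). Next in p came Mrpl17 and Mrpl19, at 0.24 ± 0.09 and 0.29 ± 0.11, and Mrpl3 at -0.29 ± 0.12. Mrpl16, the relative of bacterial uL16, was at -0.26 ± 0.11, having fallen by 51.5% in MI and by 42.0% in IR. None of these passed after adjustment, which does not show that the responses were equal. Mrpl19 fell by 28.0% in MI and by 41.0% in IR, and Mrps25 by 29.0% and 40.5%. MISham and IRSham, which differ in sampled region, were also compared: no gene was called (edgeR; 3.2% of all genes were called), with 5 genes at an unadjusted p under 0.05 by edgeR and 8 by DESeq2, which called 0. Among all 19741 genes DESeq2 called 617 higher and 346 lower in MISham than in IRSham. The family's largest estimate between the shams was 0.26, for Mrps28. Shares of all genes at an unadjusted p under 0.05 were not computed.

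The genes that make, staff and feed the mitochondrial ribosome moved with it on counts. All 5 further ribosome proteins without an Mrp name (Dap3, Chchd1, Aurkaip1, Ptcd3, Gadd45gip1) were lower in both comparisons. Of 25 assembly factors 21 were lower in MI and 22 in IR, with none higher and medians of -0.71 and -0.70. Of 15 translation factors tested 14 and 13 were lower, with medians of -0.90 and -0.91. The elongation factor Tufm had 108, 105, 120 and 116 CPM in MI against 272, 293, 261 and 288 CPM in MISham, and Lrpprc, which stabilises mitochondrial mRNAs, had a log2 fold change of -1.78 in MI and -1.61 in IR. Of 20 aminoacyl-tRNA synthetases and related enzymes 16 and 17 were lower, with medians of -0.68 and -0.59. Of 17 transcription and RNA-processing genes tested 11 and 12 were lower, with medians of -0.41 and -0.43, and of 14 import and folding genes 11 and 13 were lower, with medians of -0.70 and -0.80. No gene of these lists was called higher in either comparison. Among all genes 30.2% were called lower in MI and 28.2% in IR, and 34.8% and 29.5% were called higher.

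The partners encoded in mitochondria changed more. All 11 tested mitochondrially encoded RNAs were lower in both comparisons (against 24.8% of all genes), with medians of -2.14 in MI and -1.85 in IR. The small ribosomal RNA mt-Rnr1, which forms the small subunit with the Mrps proteins, had 504, 467, 489 and 506 CPM in MI against 2255, 2192, 2032 and 2131 CPM in MISham. In IR it had 758, 362, 698 and 299 CPM, against 1770, 2131, 1943 and 1631 CPM in IRSham. The large ribosomal RNA mt-Rnr2 had log2 fold changes of -2.39 ± 0.26 and -2.03 ± 0.26. IR libraries 1 and 3 were again the high pair. These RNAs were read from polyadenylated RNA, and another 4 mitochondrial mRNAs of the list had 0 counts in every library, so they are a partial readout. On counts 79 of 84 cytosolic ribosomal protein genes were higher in MI and 74 in IR, against 34.8% and 29.5% of all genes. These ribosomal protein genes thus moved the other way, with medians of 0.67 and 0.50. Their summed level was 30774 ± 719 CPM in MI and 19446 ± 732 in MISham, and 31500 ± 1379 in IR and 22544 ± 927 in IRSham (SD, n = 4 each).

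**Figure D4:**
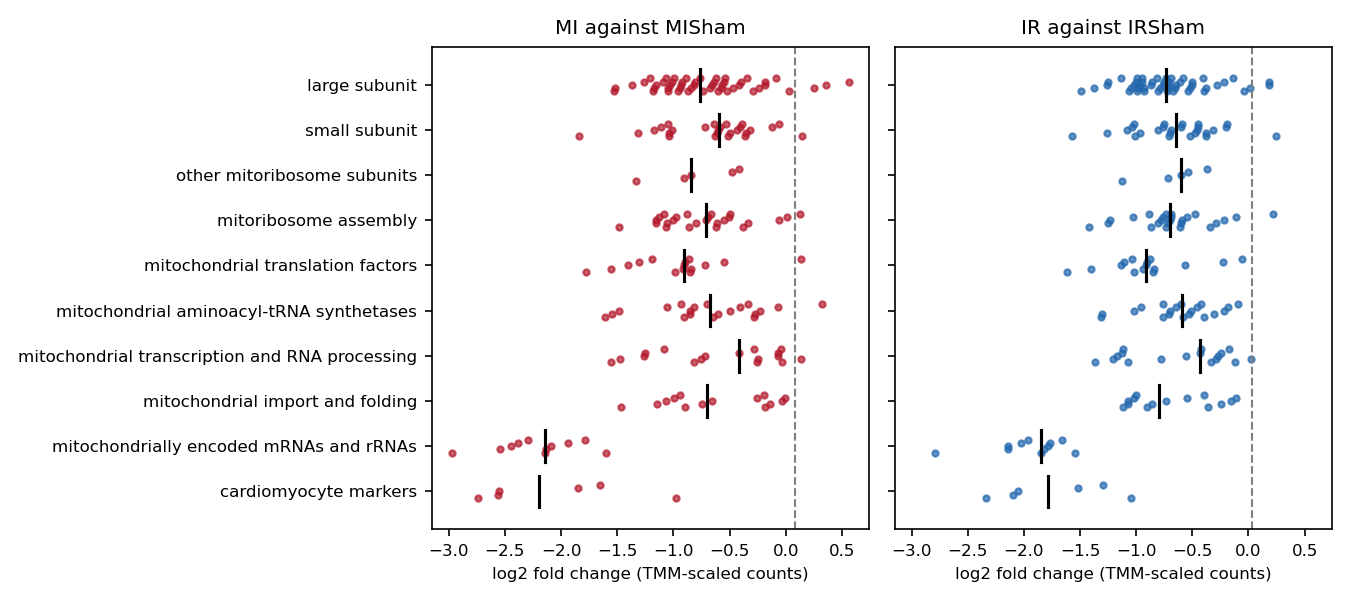
The log2 fold change on TMM-scaled counts of each tested gene (points) in the 2 subunits, the related lists and the cardiomyocyte markers, with each list's median (black bar) and the median of all genes (dashed line), for MI against MISham and IR against IRSham. Subunit medians lie between -0.76 and -0.59, while the mitochondrially encoded RNAs lie around -2.14 in MI and -1.85 in IR. On unscaled summed TPM the signs of 36 and 30 ribosomal protein genes differ, while on TPM scaled with TMM factors those of 73 and 74 are the same (shares over all genes not computed).

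Markers of cell types moved beside the family. All 6 cardiomyocyte markers were lower in both comparisons, with medians of -2.20 in MI and -1.78 in IR. Among all genes 24.8% were lower in both, while 34.8% were higher in MI and 29.5% in IR. All 6 macrophage markers were higher in MI and 5 in IR, with summed CPM of 1871 to 2626 in MI against 372 to 938 in MISham, and of 2077 to 3746 in IR against 698 to 1229 in IRSham. Of 6 fibroblast markers 5 were higher in each comparison, while 1 was lower in MI (log2 fold change -0.66) and 1 was not called in IR. All 6 genes of dividing cells were higher in both, with medians of 3.31 and 2.67. Of 6 endothelial markers 3 were higher and 1 lower in MI, and 1 and 2 in IR. Of 6 pericyte and smooth muscle markers 3 were higher and 3 lower in MI, and 2 and 3 in IR. Of 6 lymphocyte markers 6 were higher in MI and 0 in IR, and of 6 neutrophil markers 5 and 2. In such bulk tissue fewer cells of a type and less RNA per cell cannot be told apart, and the part of the changed cell makeup in the family's fall was not tested. Without MISham libraries 1 and 3, 65 genes were lower in MI and 68 in IR, and without IR libraries 1 and 3, 68 were lower in MI and 67 in IR. Without MI library 3, which also had the highest family sum of the MI group, 65 were lower in MI and 68 in IR. In each of these fits every sham library kept more cardiomyocyte RNA than any injured library, so they cannot test the part of cell makeup.

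Regulators known to act on nuclear mitochondrial genes did not share 1 direction. Nrf1, a factor that binds promoters of many such genes, averaged 27.6 ± 2.59 CPM in MI and 18.6 ± 1.28 CPM in MISham (SD, n = 4 each), a log2 fold change of 0.57 ± 0.08. The coactivator Ppargc1a had 21.6, 18.3, 41.6 and 25.9 CPM in MI against 122, 191, 127 and 186 CPM in MISham, at -2.54 ± 0.33, and its partner Esrra was at -1.38 ± 0.11. In IR the values were 0.54 for Nrf1, -2.13 for Ppargc1a and -1.34 for Esrra. Gabpa, an ETS factor, was lower at -0.42 in MI and -0.24 in IR, while Gabpb1, Pprc1 and Myc were higher in both. Of 11 regulators 5 were higher and 6 lower in MI, and 4 were higher and 6 lower in IR. Of all genes 34.8% were higher and 30.2% lower in MI, and 29.5% and 28.2% in IR.

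Promoters of the family were searched for the binding motifs of such factors. RefSeq promoters of GRCm38.p6, 250 bases before to 50 after the start, were matched to 68 of the 77 genes. On either strand, the NRF1 motif (GCGCA followed directly by TGCGC) was in 3 genes (4.41%, against 1.46% of 17424 other protein-coding genes), the ETS motif CCGGAAGT in 11 (16.2% against 5.65%) and the YY1 motif AAGATGGCG in 8 (11.8% against 2.1%). No motif overlaps another by its letters. At least 1 of the 3 motifs was in 21 genes (30.9%, against 8.84%). The ESRRA motif TCAAGGTCA was in none, where 0.379% of other genes had it, and the TATA box TATAAA was in 5 (7.35% against 14.8%). Of 20 genes with a promoter that were lower by at least 2-fold in MI, 2 had the NRF1, 3 the ETS and 3 the YY1 motif, against 1, 8 and 5 of the other 47 tested genes. Such a match is only a run of letters and does not show binding. The 250 bases before the start are printed for 4 genes, with motifs in capitals. Mrpl39, Mrpl3 and Mrps22 were chosen among named genes with an NRF1, ETS or YY1 motif in that stretch, so their motifs follow from the choice. Of those genes Mrpl39 and Mrpl3 had the lowest fold changes in MI and Mrps22, which was not called in MI, the highest. Mrpl52 was added as the largest rise in MI. Its ETS motif reaches into the 50 bases after the start and is not in the stretch printed.
Mrpl39, chr16:84735245-84735494, minus strand, NRF1 motif from base 125 before the start: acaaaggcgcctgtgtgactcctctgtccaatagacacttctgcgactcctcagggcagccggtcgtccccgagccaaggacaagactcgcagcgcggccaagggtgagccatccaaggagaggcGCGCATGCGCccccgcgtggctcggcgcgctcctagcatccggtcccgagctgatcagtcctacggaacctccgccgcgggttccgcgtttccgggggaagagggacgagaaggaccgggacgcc
Mrpl3, chr9:105053018-105053267, plus strand, ETS motif from base 19 before the start: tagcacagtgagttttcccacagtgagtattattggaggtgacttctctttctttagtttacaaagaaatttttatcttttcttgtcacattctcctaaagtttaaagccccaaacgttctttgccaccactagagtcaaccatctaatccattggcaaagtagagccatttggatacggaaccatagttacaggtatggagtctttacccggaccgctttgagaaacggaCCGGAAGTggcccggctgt
Mrps22, chr9:98601680-98601929, minus strand, ETS motif from base 11 before the start: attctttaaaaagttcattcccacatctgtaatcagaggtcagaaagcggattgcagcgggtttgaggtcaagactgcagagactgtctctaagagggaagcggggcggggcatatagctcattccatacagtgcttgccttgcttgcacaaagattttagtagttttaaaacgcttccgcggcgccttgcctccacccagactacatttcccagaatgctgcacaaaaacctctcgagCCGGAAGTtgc
Mrpl52, chr14:54426659-54426908, plus strand: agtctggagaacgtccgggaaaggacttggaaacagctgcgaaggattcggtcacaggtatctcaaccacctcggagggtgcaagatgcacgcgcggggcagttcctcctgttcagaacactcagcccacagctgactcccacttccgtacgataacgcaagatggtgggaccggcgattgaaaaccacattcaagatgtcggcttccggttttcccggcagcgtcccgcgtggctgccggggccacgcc

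Transcript usage, the share of each annotated transcript in its gene's annotated TPM, was tested for 49 of the genes with 131 transcripts. A gene counted as changed when a transcript moved by at least 10 percentage points with an adjusted p under 0.05 (limma). In MI 8 genes changed, Mrpl23, Mrpl30, Mrpl38, Mrpl48, Mrps17, Mrps21, Mrps24 and Mrps36 (16.3%, against 13.7% of all 7426 genes tested). In IR 4 genes changed, Mrpl23, Mrpl38, Mrpl48 and Mrps18b (8.16%, against 9.28%). These shares are near the background. The MI count was 2 without MI library 1 or 4, 3 without MI library 2 or MISham library 2 and 4 without MISham library 4, and the IR count was 2 without IR library 2 or 4. No gene of the family was called for a difference between the 2 responses in usage, as in all 7426 genes tested (0%).

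The clearest exchange was in Mrpl48, a mitochondria-specific large-subunit gene of low abundance (mean summed TPM 7.78 in MI against 4.43 in MISham). Its transcript Mrpl48-207 held 47.6%, 60.5%, 46.2% and 52.9% in MI, against 26.5%, 27.0%, 5.87% and 37.8% in MISham. In IR it held 40.3%, 64.8%, 47.2% and 62.1%, against 22.6%, 23.9%, 21.9% and 19.97% in IRSham. Injured and sham libraries did not overlap, and the share of Mrpl48-208 was lower, averaging 36.7% in MI hearts and 72.2% in MISham hearts, with 34.5% in IR hearts and 64.9% in IRSham hearts. The gains of Mrpl48-207 were 27.5 ± 6.4 and 31.5 ± 6.4 percentage points (SE; limma adjusted p = 0.017 and 0.0127). Both transcripts are annotated as protein-coding.

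In Mrpl23, a protein of the exit tunnel, transcript Mrpl23-201 held 40.5%, 26.0%, 23.9% and 30.9% in MI against 7.39%, 2.51%, 8.61% and 1.84% in MISham. In IR it held 10.2%, 40.0%, 42.1% and 50.8%, against 9.04%, 8.93%, 7.76% and 6.28% in IRSham, with IR library 1 near the shams. Mrpl38-201 averaged 63.4% in MI and 78.3% in MISham, and 60.1% in IR and 76.9% in IRSham, lower in both comparisons. Mrpl30-201 averaged 23.99% in MI against 8.34% in MISham and was called only in MI, with 8.35% in IR against 10.4% in IRSham. Mrps21-201 averaged 39.9% in MI against 24.3% in MISham, with 22.4% in IR against 21.9% in IRSham. Mrps36-203 averaged 83.3% in MI against 59.3% in MISham, with 68.3% in IR against 64.7% in IRSham. For these 3 transcripts the difference of the responses did not pass (limma adjusted p from 0.168 to 0.566).

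**Figure D5:**
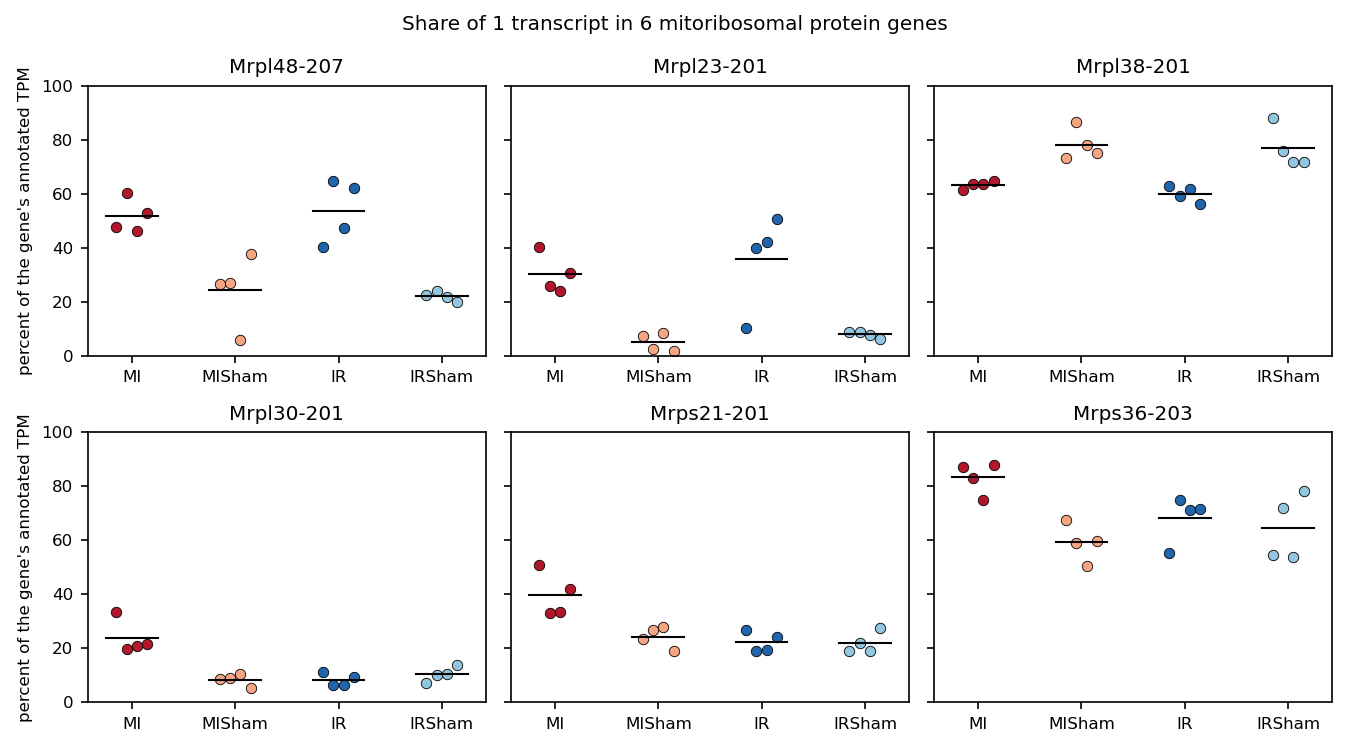
Share of 1 transcript in its gene's annotated TPM in each library (points, with the group mean as a line) for 6 genes in MI, MISham, IR and IRSham. Mrpl48-207, Mrpl23-201 and Mrpl38-201 differ from sham in both injuries, while Mrpl30-201, Mrps21-201 and Mrps36-203 were called in MI alone, a difference between injuries that did not pass its own test.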

How the data were processed

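Polyadenylated RNA of mouse heart was read in 16 short-read libraries. Per the file headers and values, the authors deposited whole-number counts per gene and TPM per transcript. The submitters' processing notes name GRCm39, kallisto 0.50.1, featureCounts 2.0.1, HISAT2 2.2.1 and SAMtools 1.7, without roles; no source says whether counting used strand. Per the labels, deposited counts and TPM came from 4 groups of 4 libraries.

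The members and gene lists, and the tests, were chosen with earlier results of these data known. Symbols came from GENCODE M21, which is on GRCm38, so no coordinates of the files were used. The rule names 78 genes there, of which 77 were analysed here. In R 4.3.3, counts were tested with edgeR 4.0.16 (TMM, filterByExpr with a minimum count of 10 and total of 15, robust quasi-likelihood fit, 1 mean per group over 16 libraries, Benjamini-Hochberg over 19741 genes); the SE of a fold change was derived from its test statistic. Summed TPM (mean of at least 1) was tested as log2(TPM + 1), and usage as percent, with limma 3.58.1; a log2(TPM + 1) difference understates the change of low genes. Usage was tested in genes whose summed TPM averaged 5 or more and which had 2 or more transcripts each averaging 5% or more of it. DESeq2 1.42.0 was an alternative. The 2 columns of the transcript table that name no sample were not used. The procedures were tested on simulated data.

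The genes named in the text follow a rule: the 10 lowest and 5 highest called genes per comparison, genes not called, the 6 differences of the responses with the smallest p, the most and least abundant genes, a fixed set with known roles, and genes with changed usage. Genes whose direction differs between counts and TPM, also in the rule, are given by count unless another criterion names them; in the lists and among the regulators, further genes were named after their values were seen. Replicate libraries differed by more than sampling noise (lowest chi-square per gene 9.70), and none was counted as a duplicate.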

Additional observations from a re-analysis of the deposited data

Results flagged for a closer look

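In 10 of 204 groups of 4 libraries checked among the named genes, 1 library lay far from the other 3 by Dixon's criterion. Chance flags about 1 in 20 such groups, which is 10 here, so the number of flags is what chance gives. Mrpl20 stood low in 1 MI library at 36.8 CPM (others 41.4 to 41.6), Mrpl38 in 1 IR library at 31.8 CPM (others 40.7 to 41.3) and Mrpl57 in 1 IR library at 25.5 CPM (others 30.4 to 31.3). In MI, Mrpl9 reached 39.6 CPM (others 32.5 to 33.2), Mrps10 31.4 CPM (others 29.0 to 29.2) and Mrps28 27.7 CPM (others 24.2 to 24.6). Mrps17 reached 59.6 CPM in 1 MISham library (others 46.5 to 47.8) and 40.7 CPM in 1 IR library (others 34.4 to 35.4). In IRSham, Mrps2 reached 46.5 CPM (others 34.1 to 35.3) and Mrps36 59.6 CPM (others 53.0 to 53.7).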

How the results depend on the processing

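Counts of calls kept their side under DESeq2 with its own size factors, upper-quartile factors, no filter on low counts, a fit without robust estimation and, for lower calls, a fit of the compared groups alone. The scaling moved the counts further. With library size alone, all genes' median rose to 0.39 in MI and 0.32 in IR, higher calls made up 68.6% and 69.1% of all calls (53.5% and 51.1% with TMM), and 52 genes of the family were lower and 6 higher in MI, 57 and 5 in IR. Under that scaling 4270 of all 19741 genes were lower and 9318 higher in MI, and 3754 and 8411 in IR. Mrpl54, Mrpl57 and Mrpl24 in MI then turned to 0.13, 0.12 and 0.074, and Mrpl24 and Mrpl36 in IR to 0.072 and 0.0073. With limma on log2(summed TPM + 1), calls were 26 lower and 24 higher in MI and 28 and 15 in IR. The following turned sign on that scale in MI: Mrpl54 (0.57), Mrpl57 (0.10), Mrpl24 (0.35), Mrpl36 (0.32), Mrps18c (0.50), Mrpl19 (0.36), Mrps25 (0.24), Mrpl10 (0.0295), Mrpl11 (0.12), Mrpl58 (0.0026), Mrps2 (0.33), Mrps12 (0.14), Mrpl38 (0.15), Mrpl48 (0.71) and Mrps17 (0.15). In IR these were Mrpl54 (0.24), Mrpl57 (0.22), Mrps22 (0.28), Mrps6 (0.28), Mrpl24 (0.26), Mrpl36 (0.33), Mrpl10 (0.13), Mrps2 (0.17), Mrps12 (0.0805), Mrpl38 (0.15), Mrpl48 (0.37) and Mrps17 (0.16). The 2 scalings added after seeing the data took the unscaled TPM back towards the counts: TMM factors gave 62 lower and 3 higher in MI and 65 and 4 in IR, and TPM outside the mitochondrially encoded transcripts gave 35 and 14 in MI and 35 and 9 in IR. Of all 14240 genes with TMM factors, 3882 were lower and 5727 higher in MI, and 3554 and 5253 in IR. Of all 14698 genes outside the mitochondrially encoded transcripts, 2319 were lower and 8690 higher in MI, and 2076 and 8156 in IR. Without a filter on low TPM the family's median stood only 0.04 and 0.14 below that of all genes, a value set by the many near-zero genes then included. A 2-fold minimum left 23 lower in MI and 16 in IR and 0 higher in either. Of all 19741 genes it left 3241 lower and 3504 higher in MI, and 2580 and 2581 in IR. In a fit of the compared groups alone, 0 genes were higher in IR and 1 in MISham against IRSham; the MISham count was also 1 without MISham libraries 1 and 3, and that setting left 5 genes with changed usage in MI. Leaving out each library in turn gave 65 to 68 lower and 3 to 3 higher in MI, 67 to 68 lower and 0 to 2 higher in IR (2 without MISham library 2 or IRSham library 2, 0 without IR library 4), and 0 called for the difference of the responses and between the shams. On summed TPM it gave 24 to 27 lower and 21 to 25 higher in MI and 23 to 28 lower and 10 to 19 higher in IR, and for usage 2 to 9 in MI and 2 to 6 in IR.

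The replicate numbers met no criterion for pairing: deviations of same-numbered injured and sham libraries correlated at -0.162 to 0.149, with 1 of 8 libraries best with its own number. Between MI and IR the same-numbered correlations ran from -0.229 to 0.357, with numbers 2 and 3 best with their own, and between MISham and IRSham from -0.332 to 0.105, with number 3 best with its own. With the replicate block, 67 genes were lower and 3 higher in MI, 68 and 1 in IR, 0 for the difference and 0 between the shams, 26 and 24 on summed TPM in MI and 25 and 15 in IR, and 5 genes changed usage in MI and 3 in IR.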
